A study of Homo sapiens with 16 samples.

Results

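Knockdown of TAZ was set directly against knockdown of beta-catenin in SW480 cells, an established line from a human colorectal tumour with a truncated APC. The comparison used 8 of the 16 arrays of the series: the 4 siTAZ arrays, from cells given an siRNA against TAZ (gene WWTR1), and the 4 sibcat arrays, from cells given an siRNA against beta-catenin (gene CTNNB1). Both groups were chosen by their labels, and no control array entered the difference. Cells of both groups stably carried an empty vector, were grown in medium with serum, insulin and hydrocortisone, and were transfected with a lipid reagent. The 4 control arrays came from empty-vector cells with a control siRNA titled siGFP, and their means are given as a reference level. The other 4 arrays were of cells with wild-type APC and the control siRNA. All 16 arrays entered the estimate of the spread, the choice of probe set and the median probe set level used below. Replicates are lettered A to D and are called biological replicates; separate cultures are not stated, so p-values measure only how far these arrays spread, and that spread may be technical. Each target was represented by 1 siRNA condition in 1 cell line, so an effect of an siRNA on other transcripts and an effect of losing its target cannot be told apart.

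TAZ and its relative YAP are coactivators without a DNA-binding domain of their own. They are held in the cytoplasm when the Hippo kinases phosphorylate them, and in the nucleus they act mainly through the TEAD factors, whose core motif is GGAATG. Beta-catenin is degraded by a complex built on APC and AXIN; when that complex fails, as in most colorectal cancers, it accumulates and activates genes through TCF and LEF factors, whose core motif is CTTTGA. TAZ is also known as a client of the same destruction complex, and the study, by its title and design, concerns the part of TAZ in the response to Wnt.

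Levels are log2 values made by RMA, a method that combines the probes of a probe set into 1 level. A log2 difference is always siTAZ minus sibcat. A gene was called at a Benjamini-Hochberg adjusted p under 0.05 over all 19775 genes in limma, and adjusted p-values below are from that fit. Of the 19775 genes, 3737 (18.9%) were called higher and 3522 (17.8%) lower in siTAZ than in sibcat, which makes 7259 or 36.7% in all. The 4 siTAZ and 4 sibcat arrays did not overlap in 7236 genes (36.6%). Most differences were small: the median was 0.01, the 10th and 90th percentiles were -0.39 and 0.39, and 879 called genes differed by at least 2-fold, 449 of them higher and 430 lower in siTAZ. The largest differences leaned toward siTAZ, with 87 genes higher and 49 lower by at least 4-fold, and 25 higher against 5 lower by at least 8-fold. A level of 5.09, the median of all probe sets, is used below as a mark of dimness, because a signal under it may be largely background. Among the 12819 genes that reached it in at least 1 of the groups, 52.6% were called, 27.1% higher and 25.5% lower, and the gene lists below consist mostly of such genes.

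**Figure D1:**
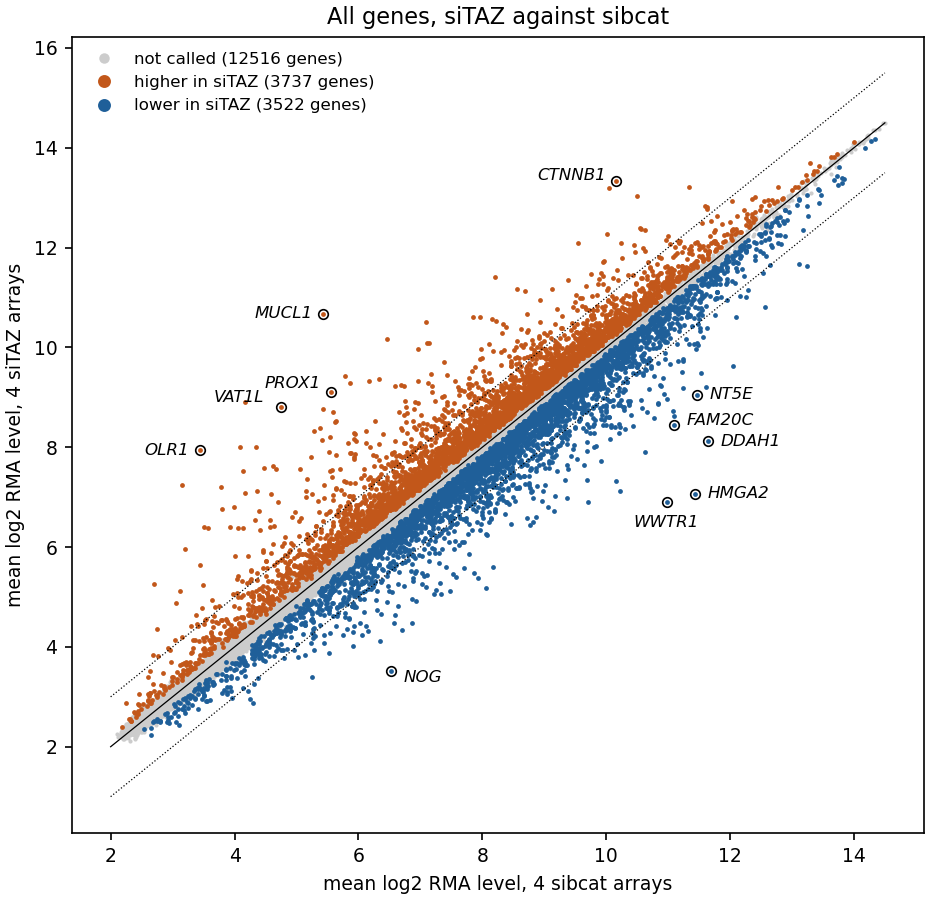
Each point is 1 of 19775 genes, with its mean log2 RMA level over the 4 sibcat arrays on the horizontal axis and over the 4 siTAZ arrays on the vertical axis; the solid line marks equal levels, the dotted lines a 2-fold difference, and colours the call. MUCL1 and CTNNB1 lie far above the line, HMGA2, WWTR1 and DDAH1 far below it, and most called genes lie within the dotted lines.

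The targeted genes checked the labels first. WWTR1, which encodes TAZ, read 6.79, 7.0, 6.77 and 7.06 on siTAZ arrays A to D and 10.97, 10.93, 11.05 and 10.95 on the sibcat arrays. The groups were far apart, and the control mean of 10.28 lay nearer the sibcat arrays. The difference was -4.07 (SE 0.0729, adjusted p = 3.41e-16), a 16.8-fold lower level, and the other 2 WWTR1 probe sets were lower by 3.40 and 3.26 log2 units. CTNNB1, which encodes beta-catenin, read 13.35, 13.18, 13.39 and 13.39 on the siTAZ arrays and 9.99, 9.94, 10.43 and 10.30 on the sibcat arrays. Here the siTAZ arrays sat near the control mean of 13.12 and the sibcat arrays were 8.95-fold lower (log2 difference 3.16, SE 0.109, adjusted p = 6.1e-13). The other CTNNB1 probe sets gave 3.29 and 0.80, the same way. Exact two-sided permutation tests of both genes gave p = 0.0286, the smallest that 4 against 4 arrays allow.

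HMGA2, a chromatin protein of embryonic and malignant cells, had the largest decrease of any gene. Its levels were 7.05, 7.13, 7.06 and 7.02 in siTAZ and 11.42, 11.37, 11.49 and 11.44 in sibcat. The arrays within each group spanned little more than 0.1 log2 units, the 2 groups were 20.6-fold apart (-4.37, SE 0.0475, adjusted p = 8.51e-19), and the control mean of 9.99 lay between them. This rests on 1 bright probe set: of 8 other HMGA2 probe sets, all dimmer, 4 were also called lower and 4 were not called, and the difference was -0.79 over the mean of all 9 and -1.10 on the brightest without an _s_at or _x_at ending, endings that mark probes able to bind several transcripts. MUCL1, a small mucin-like secreted protein first known from breast, had the largest increase. It read 10.68, 10.60, 10.79 and 10.62 in siTAZ and 5.29, 5.68, 5.76 and 4.97 in sibcat, a 38.0-fold difference (5.25, SE 0.124, adjusted p = 7.91e-15). The sibcat arrays were close to the median probe set level, so their level may be partly background, and the control mean was 9.72. YAP1, the relative of TAZ, was also higher in siTAZ, at 11.35, 11.14, 11.12 and 11.15 against 9.84, 10.11, 10.11 and 10.07 in sibcat. All 3 of its probe sets were called that way, by 0.95 to 1.21 log2 units (1.16 on the brightest, adjusted p = 6.28e-09), and with a control mean of 11.36 it was the sibcat arrays that stood apart.

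**Figure D2:**
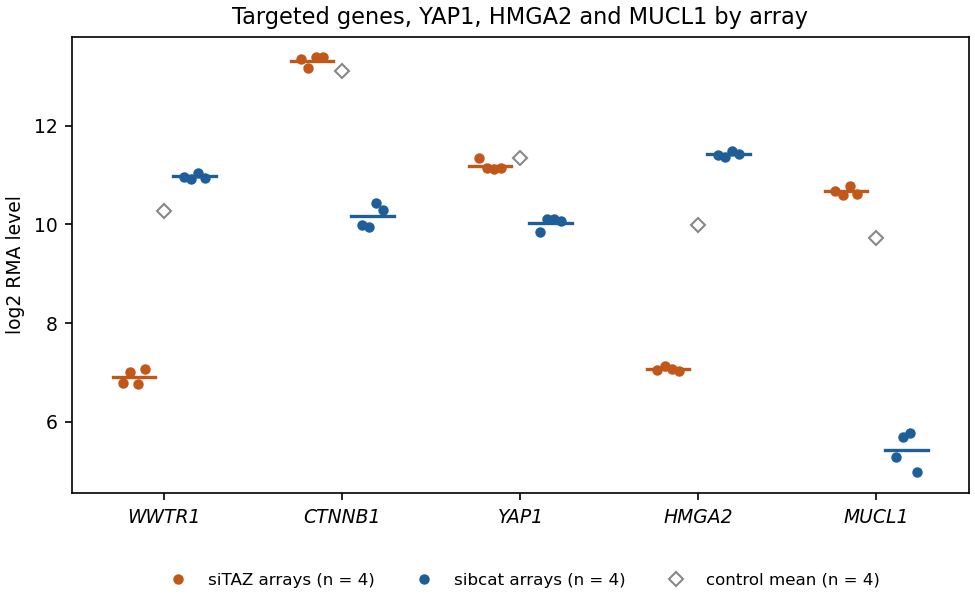
Log2 RMA level (vertical axis) of 5 genes; each dot is 1 array, lines are means of 4 arrays, and open diamonds are control means. WWTR1 and HMGA2 are low in siTAZ, CTNNB1, YAP1 and MUCL1 are low in sibcat, and no gene's groups overlap.

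The other genes with the greatest excess in siTAZ were of varied known function. OLR1, a receptor for oxidised low-density lipoprotein, read 7.87, 7.99, 7.93 and 7.98 in siTAZ against 3.53, 3.60, 3.30 and 3.31 in sibcat. ABCB1, the drug efflux pump P-glycoprotein, read 9.48, 9.44, 9.39 and 9.40 against 5.83, 5.64, 5.80 and 5.86. The differences were 22.8-fold (4.51, adjusted p = 3.67e-15) and 12.5-fold (3.65, adjusted p = 1.49e-15), in genes taken among those without overlap. IL24, a cytokine of the IL10 family, was higher by 3.67, TMEM52B by 4.75, PLPPR4, a phospholipid phosphatase-related membrane protein of neurons, by 4.10, VAT1L by 4.05, TTC29 by 3.92 and KANK4, a scaffold of cell adhesions, by 3.42. For OLR1, IL24, TMEM52B, PLPPR4, VAT1L, TTC29 and KANK4 the sibcat mean was under 5.09, so the sizes of these differences are uncertain. PROX1, a homeobox factor known as a Wnt target in colorectal tumours, was higher by 3.54 and bright enough to measure in both groups.

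STMN1 and CEMIP depend on the probe set. STMN1, the microtubule-destabilising protein stathmin, read 10.15, 10.17, 10.17 and 10.15 in siTAZ and 6.59, 6.66, 6.67 and 5.95 in sibcat, a difference of 3.69 (adjusted p = 2.19e-13). CEMIP, a hyaluronan-binding protein, read 9.25, 9.10, 9.37 and 9.40 against 5.73, 5.85, 5.98 and 5.92, a difference of 3.41 (adjusted p = 1.5e-14). Each of these comes from a probe set ending in _s_at. The only other probe set of STMN1 was dim and gave 0.26, and that of CEMIP was dim and gave 0.12, neither called.

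Genes with the greatest excess in sibcat were as varied. DDAH1, which breaks down the inhibitor of nitric oxide synthases, read 8.22, 8.05, 8.14 and 8.08 in siTAZ and 11.63, 11.61, 11.69 and 11.66 in sibcat. It was 11.5-fold lower in siTAZ (-3.52, adjusted p = 3.23e-17), with a control mean of 10.90 on the sibcat side. ITGB8, an integrin subunit that activates latent TGF-beta, read 7.13, 6.86, 7.29 and 7.24 against 10.03, 10.12, 10.50 and 10.23. That is 8.51-fold lower in siTAZ (-3.09, adjusted p = 1.2e-10), and here the control mean of 7.74 lay nearer the siTAZ arrays. Its partner ITGAV, the alpha-V integrin subunit, was also lower, at 9.22, 9.10, 9.26 and 9.26 against 11.54, 11.52, 11.74 and 11.66 (-2.40, adjusted p = 2.09e-12).

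NOG, the BMP antagonist noggin, was near the bottom of the scale in siTAZ at 3.47, 3.63, 3.53 and 3.44 and reached 6.54, 6.51, 6.59 and 6.44 in sibcat (-3.0, adjusted p = 3.75e-14). Its siTAZ and control levels (control mean 3.94) were dim, so the size is uncertain. The remaining genes of the 12 lowest were MEGF10, an engulfment receptor (-2.88), MPC2, which helps carry pyruvate into mitochondria (-2.83), RAB8B, a GTPase of vesicle traffic (-2.79), CD109, a TGF-beta co-receptor (-2.72), FAM20C, the kinase of secreted proteins (-2.65), COXFA4L3 (-2.58) and TMEM65, a mitochondrial inner membrane protein (-2.55). The 24 genes at the extremes were taken among those whose arrays do not overlap, and they differed in where control lay: for MPC2, RAB8B, CD109 and TMEM65 the control means of 9.96, 8.97, 9.74 and 7.58 were nearer sibcat, and for FAM20C, MEGF10 and COXFA4L3 those of 8.56, 4.54 and 5.06 were nearer siTAZ.

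**Figure D3:**
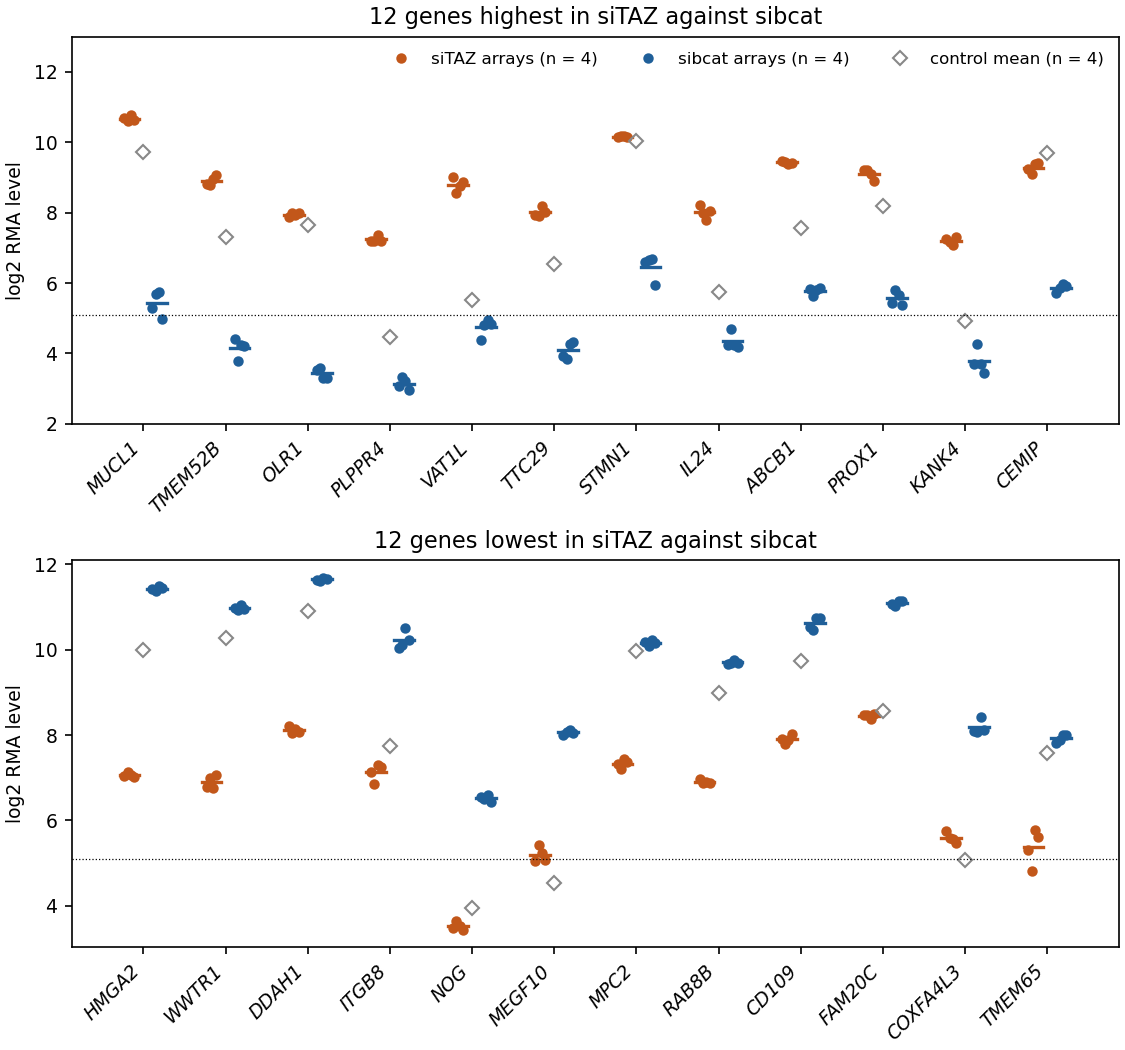
Log2 RMA level (vertical axis) of the 12 genes highest and the 12 genes lowest in siTAZ; dots are single arrays, lines means of 4 arrays, open diamonds control means, and the dotted line the median probe set level of 5.09. The genes were taken among those without overlap; the sibcat means of TMEM52B, OLR1, PLPPR4, VAT1L, TTC29, IL24 and KANK4 and the siTAZ mean of NOG are under the dotted line.

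The Wnt target list had the highest median difference of the 28 lists. Of 30 Wnt/beta-catenin target genes analysed, 24 were called higher in siTAZ, 3 lower and 3 were not called, with a median difference of 1.12 against 0.01 over all genes. The share called was 90%, against 52.6% of genes at or above 5.09. PROX1 read 9.20, 9.22, 9.10 and 8.90 in siTAZ and 5.42, 5.80, 5.66 and 5.37 in sibcat, an 11.7-fold difference (3.54, adjusted p = 4.37e-14). FGF20, a growth factor, read 9.28, 9.54, 9.36 and 9.15 against 6.28, 6.21, 6.04 and 6.13 (3.17, adjusted p = 8.48e-15). Neither gene's groups came within 2 log2 units of each other.

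Feedback inhibitors of the pathway, apart from WIF1, were called higher in siTAZ. AXIN2, the scaffold used as a standard readout of beta-catenin activity, read 11.87, 11.68, 11.63 and 11.64 in siTAZ and 9.85, 9.96, 10.04 and 9.94 in sibcat, 3.38-fold apart (1.76, adjusted p = 1.88e-12). The siTAZ arrays lay around the AXIN2 control mean of 11.61. NKD1, which binds Dishevelled, was higher by 2.02 (adjusted p = 9.18e-13) and APCDD1 by 1.72. Of the receptor-level inhibitors, the ubiquitin ligases RNF43 and ZNRF3, which remove Frizzled receptors, were higher by 1.26 and 0.89, DKK1 and DKK4, which block the LRP co-receptors, by 1.12 and 1.43 (DKK4 from a dim sibcat level), and NOTUM, which removes the lipid of Wnt proteins, by 0.77.

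Transcription factors and cell cycle genes of the list followed. The factors SP5 and ASCL2 were higher by 2.32 and 1.70, LEF1 by 0.58, SOX4 by 0.90 and SOX9 by 0.36. CCND1, cyclin D1, read 12.43, 12.39, 12.40 and 12.35 in siTAZ and 10.50, 10.54, 10.53 and 10.64 in sibcat, 3.58-fold apart (1.84, adjusted p = 4.23e-13). MYC, at 11.41, 11.46, 11.35 and 11.37 against 10.68, 10.61, 10.47 and 10.53, differed less (0.82, 1.77-fold, adjusted p = 1.27e-08), again without overlap. JAG1, a Notch ligand (2.61), BAMBI, a pseudoreceptor for BMP and TGF-beta (2.55), and TNFRSF19, a TNF receptor family member of stem cells (2.50), were among the most shifted.

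The exceptions were few. CD44 (-0.50), CDC25A (-0.36) and PROM1 (-0.20, dim in both groups) were called lower in siTAZ. EPHB3 (-0.01), WIF1 (-0.04) and LGR5 (-0.07) were not called, and LGR5, a receptor of intestinal stem cells, was dim throughout at 3.85, 3.57, 4.14 and 3.74 in siTAZ and 3.72, 3.87, 3.94 and 4.05 in sibcat (adjusted p = 0.746).

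YAP/TAZ target genes were less one-sided. Of 30 analysed, 12 were called lower in siTAZ, 5 higher and 13 were not called, with a median of -0.17. The share called was 56.7%, near the 52.6% of genes at or above 5.09 in at least 1 group. NT5E, the ecto-nucleotidase CD73, read 9.02, 9.05, 9.01 and 9.12 in siTAZ and 11.43, 11.44, 11.46 and 11.55 in sibcat. It was 5.35-fold lower in siTAZ (-2.42, adjusted p = 4.64e-15), with a control mean of 9.98 between the groups. F3, tissue factor, read 7.79, 7.67, 7.93 and 7.64 against 9.27, 9.53, 9.73 and 9.57 (-1.77, adjusted p = 1.05e-09). IGFBP3, a binding protein of insulin-like growth factors, and AXL, a receptor tyrosine kinase, were lower by 1.61 and 1.35 log2 units.

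The most used readouts of YAP and TAZ did not separate the groups evenly. CCN1, a matricellular protein also called CYR61, read 9.77, 9.75, 9.78 and 9.78 in siTAZ and 10.52, 10.51, 10.70 and 10.60 in sibcat, 1.76-fold apart (-0.81, adjusted p = 8.56e-09). CCN2, its relative CTGF, read 4.71, 4.88, 4.72 and 4.77 against 5.21, 4.88, 5.19 and 5.05. Its groups touched at 4.88, and the difference of -0.31 was not called (95% interval -0.59 to -0.03, adjusted p = 0.0771). Both group means were under 5.09 while the control mean was 7.26, so a further difference between them may be hidden by background. CCN2 was called with the 8 arrays alone (-0.31, adjusted p = 0.0101), in replicates C and D alone (adjusted p = 0.0442) and without sibcat replicate B (adjusted p = 0.0463). ANKRD1, a cardiac ankyrin-repeat protein, had means of 8.88 in siTAZ and 8.89 in sibcat with SDs of 0.272 and 0.309 (n = 4). Its groups overlapped almost fully, and the interval of the difference ran from -0.42 to 0.41 (adjusted p = 0.985), below a control mean of 9.72 in both. The 5 target genes higher in siTAZ were GGH, a folate hydrolase (1.32), EDN1, endothelin 1 (0.70), BIRC5, the mitotic protein survivin (0.66), AMOTL2 (0.37) and CRIM1 (0.19).

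**Figure D4:**
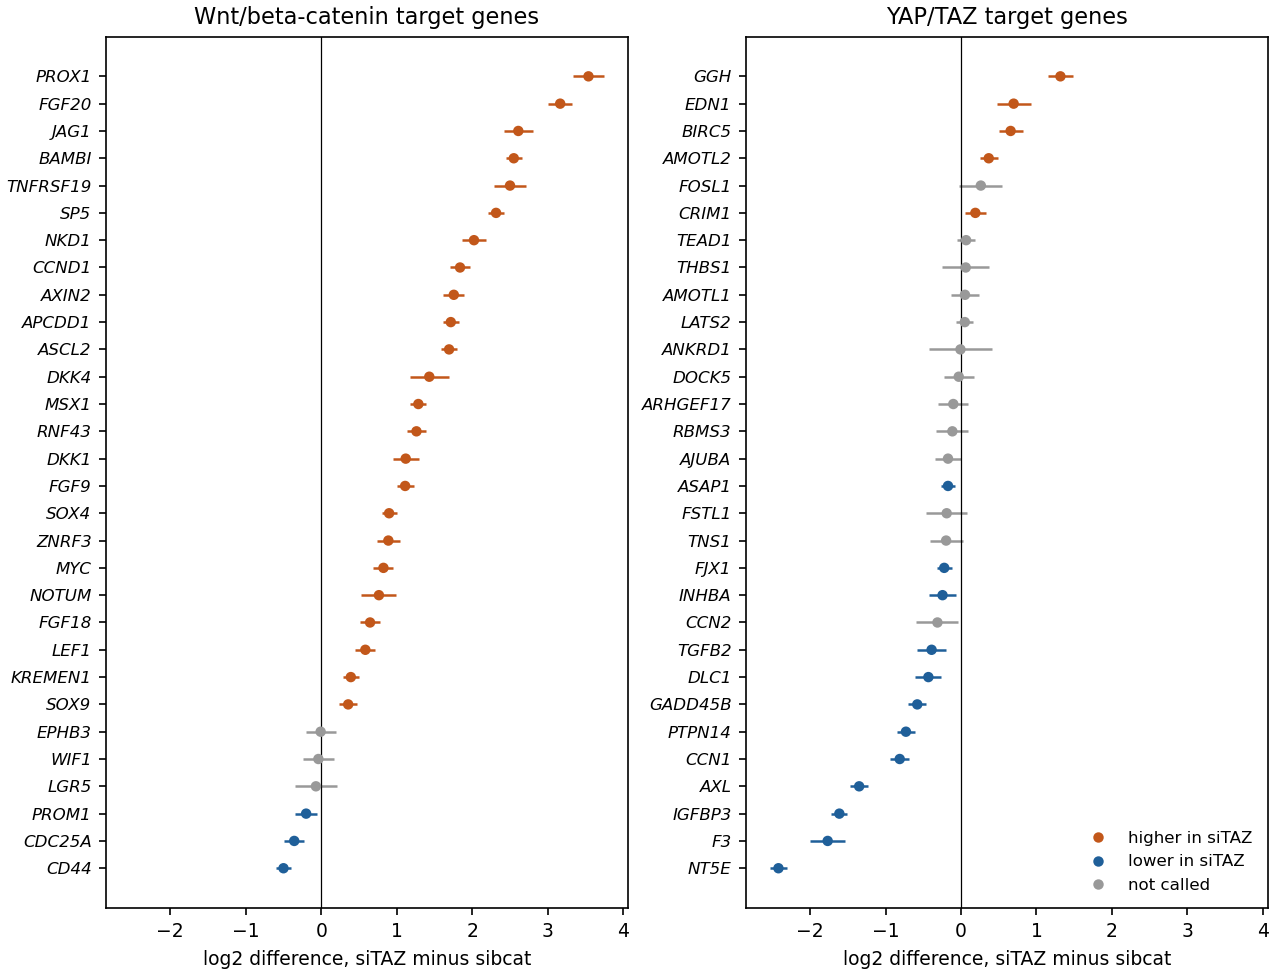
Log2 difference, siTAZ minus sibcat (horizontal axis), for 30 Wnt/beta-catenin and 30 YAP/TAZ target genes; points are fitted differences over 4 against 4 arrays, bars 95% intervals, and colours the call. 24 Wnt targets are called to the right of 0, and the YAP/TAZ targets lie on both sides, with 12 called to the left and 5 to the right.

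Promoters of both target lists were searched for the core motifs of the factors that the lists are named for. RefSeq windows (GRCh38.p14) from 250 bases before to 50 after the start were held for 15384 of the genes tested, 20 of the 30 YAP/TAZ targets and 16 of the 30 Wnt targets; where a gene had several windows the first listed was used. Windows of CCN2 (chr6:131951323-131951622, minus strand), ANKRD1 (chr10:90921038-90921337, minus strand), SP5 (chr2:170715087-170715386, plus strand) and DKK1 (chr10:52314031-52314330, plus strand) follow, 5′ to 3′ along the gene, with GGAATG and CTTTGA in capitals on either strand (TCAAAG is CTTTGA read from the other strand). They are shown as a pair of YAP/TAZ targets that were not called and a pair of Wnt targets that were higher in siTAZ. Each pair held the most matches to the motif of its list, so these windows are not typical of the lists.
CCN2: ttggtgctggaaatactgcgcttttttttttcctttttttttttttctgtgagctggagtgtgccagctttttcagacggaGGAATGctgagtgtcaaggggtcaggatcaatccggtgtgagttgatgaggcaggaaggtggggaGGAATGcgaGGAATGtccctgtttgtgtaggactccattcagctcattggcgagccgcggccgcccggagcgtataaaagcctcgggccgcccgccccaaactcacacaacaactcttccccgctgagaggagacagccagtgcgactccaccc
ANKRD1: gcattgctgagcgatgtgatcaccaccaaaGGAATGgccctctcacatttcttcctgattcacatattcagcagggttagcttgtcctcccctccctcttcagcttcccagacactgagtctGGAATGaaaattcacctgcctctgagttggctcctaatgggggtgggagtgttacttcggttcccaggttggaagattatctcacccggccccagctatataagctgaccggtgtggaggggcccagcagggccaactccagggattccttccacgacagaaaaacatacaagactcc
SP5: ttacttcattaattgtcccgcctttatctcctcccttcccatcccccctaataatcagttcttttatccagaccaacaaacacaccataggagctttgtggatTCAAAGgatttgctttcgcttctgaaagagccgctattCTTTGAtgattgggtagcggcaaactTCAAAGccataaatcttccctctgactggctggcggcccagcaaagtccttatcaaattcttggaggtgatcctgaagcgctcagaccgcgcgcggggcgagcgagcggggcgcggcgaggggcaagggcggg
DKK1: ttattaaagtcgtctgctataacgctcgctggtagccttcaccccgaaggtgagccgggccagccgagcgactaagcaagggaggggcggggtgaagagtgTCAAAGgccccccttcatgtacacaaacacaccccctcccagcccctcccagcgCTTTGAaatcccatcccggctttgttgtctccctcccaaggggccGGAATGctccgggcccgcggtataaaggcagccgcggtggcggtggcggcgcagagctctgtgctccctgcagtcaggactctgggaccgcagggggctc
CCN2 held 3 TEAD cores, starting 169, 104 and 95 bases before the start, and ANKRD1 held 2, at 220 and 128. SP5 held 3 TCF/LEF cores, at 147, 109 and 83 bases before the start, and DKK1 2, at 149 and 95, plus 1 TEAD core at 50. Over all 15384 windows, 11.9% held GGAATG and 10.7% held CTTTGA. Among genes higher in siTAZ the shares were 10.7% and 9.5%, among genes lower in siTAZ 11% and 8.71%, and among genes not called 12.6% and 11.7%. Both called groups thus had lower shares than the genes not called, for either motif; no test of this was made. In the YAP/TAZ list 6 of 20 windows held GGAATG and 2 of 20 held CTTTGA, and in the Wnt list 2 of 16 held GGAATG and 3 of 16 held CTTTGA, counts too small to order. A match is a run of letters in this window and no evidence of binding, and sites outside the window were not searched.

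Components of the Hippo pathway differed in both directions. Of 27, 10 were higher in siTAZ, 9 lower and 8 not called, with a median of 0.05 (-0.01 with the filter on dim genes). In all 70.4% were called, against 52.6% of genes at or above 5.09 in at least 1 group (27.1% higher, 25.5% lower). Beside WWTR1 itself, the kinase adaptor MOB1A was lower in siTAZ by 1.06, the kinase MAP4K4 by 0.79 and the kinase LATS1 by 0.62. Beside YAP1, the protocadherin FAT1 was higher by 1.32 (11.27 against 9.95 in sibcat, adjusted p = 1.96e-12), and the kinases STK4 and STK3, the mammalian Hippo kinases, by 0.97 and 0.65. Of the DNA-binding partners, TEAD1 (0.07) and TEAD3 (-0.08) were not called, TEAD4 was higher by 0.28 and TEAD2 lower by 0.31.

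Wnt pathway components were likewise split, with 10 higher, 12 lower and 14 not called of 36 and a median of -0.01, which was above 0 in replicates C and D alone, without siTAZ replicate B and with ACTB degradation as a covariate (0.01 at most). Of these components 61.1% were called, against 52.6% of genes at or above 5.09. Apart from CTNNB1, the corepressor TLE3 (1.19) and the casein kinases CSNK1E (1.12) and CSNK1A1 (0.91) were higher in siTAZ. CTNNBIP1, which blocks binding of beta-catenin to TCF, was lower by 1.47 (7.29 against 8.76, adjusted p = 8.43e-12), and the receptors FZD1 and FZD7 by 1.16 and 1.11. TCF7L2, the main TCF of the intestine, differed by 0.01 and was not called.

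Genes of proliferation and ribosome production were mostly higher in siTAZ than in sibcat, by small amounts. Of 36 DNA replication and G1/S genes 27 were higher, 3 lower and 6 not called (median 0.33). Of 36 mitosis and G2/M genes 20 were higher, 4 lower and 12 not called (median 0.26), and of 26 ribosome biogenesis genes 22 were higher, none lower and 4 not called (median 0.29). The shares called were 83.3%, 66.7% and 84.6% in that order, against 52.6% of genes at or above 5.09. CDT1, which licenses replication origins, read 9.06, 9.04, 9.18 and 9.04 in siTAZ and 8.04, 8.07, 8.13 and 7.95 in sibcat, 2.05-fold apart (1.03, adjusted p = 2.97e-10). GINS1, of the replicative helicase, was higher by 0.96, RFC5, of the clamp loader, by 0.84, and MCM2, of the same helicase, by 0.77. Cyclin B1, CCNB1, was higher by 0.62 and the kinetochore proteins NUF2 and SPC25 by 0.58 each. Among ribosome genes UTP15, LYAR and WDR43 were higher by 0.89, 0.80 and 0.79 and POLR1B, a subunit of RNA polymerase I, by 0.56. Control means of GINS1 (10.55), RFC5 (10.02), CCNB1 (11.54) and NUF2 (8.89) were above both groups and nearer siTAZ. So were those of SPC25 (10.2), UTP15 (7.98), LYAR (10.51) and POLR1B (9.87). Those of CDT1 (8.7) and WDR43 (9.4) lay between the groups, also nearer siTAZ.

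The largest differences of the replication and mitosis lists went the opposite way. E2F8, a repressing E2F, read 6.04, 6.04, 5.87 and 5.89 in siTAZ and 7.31, 7.22, 7.49 and 7.38 in sibcat (-1.39, adjusted p = 3.6e-08). PRC1, a microtubule bundler of cell division, read 8.53, 8.26, 8.32 and 8.20 against 9.65, 9.61, 9.73 and 9.69 (-1.34, adjusted p = 2.68e-11). Both were higher still in control, at means of 8.35 and 10.31. For the ribosome list limma called 0 lower genes, with 1 lower at an unadjusted p under 0.05; the 0 became 1 without siTAZ replicate A or sibcat replicate A, and the 3 lower replication genes became 1 without sibcat replicate C.

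Inhibitors of cyclin-dependent kinases and p53 targets had 7 members higher, 7 lower and 6 not called of 20 (4 higher and 5 lower of the 16 left without _s_at and _x_at probe sets). Their share called was 70%, against 52.6% of genes at or above 5.09. CDKN1C, the inhibitor p57, read 9.33, 9.38, 9.58 and 9.58 in siTAZ and 7.14, 7.12, 7.23 and 7.22 in sibcat, 4.89-fold apart (2.29, adjusted p = 1.02e-13). CDKN1A, p21, read 9.99, 9.98, 9.86 and 9.87 against 8.22, 8.21, 8.18 and 8.08 (1.75, adjusted p = 1.28e-13). These and the genes that advance the cycle were thus higher in the same group. The RNA-binding p53 target ZMAT3 was lower by 1.34, and CDKN2B, p15, by 1.23. GDF15, a stress cytokine, was higher by 1.55 on its brightest probe set, which ends in _x_at; without such endings its probe set was dim and gave -0.15, not called.

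Apoptosis genes were few and evenly split, with 6 higher and 6 lower of 23 (3 and 4 of the 19 left without _s_at and _x_at probe sets). Their share called, 52.2%, was near the 52.6% of genes at or above 5.09 in at least 1 group. BID, a pro-apoptotic BH3 protein, was lower in siTAZ by 1.01, the death ligand TNFSF10 and the caspase regulator CFLAR by 0.72 and 0.71, and the survival protein MCL1 was higher by 0.71. The TNFSF10 control mean of 7.6 was below both groups.

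Interferon response genes were mostly lower in siTAZ: of 38, 21 were lower, 8 higher and 9 not called, with a median of -0.31. In this list 76.3% were called, against 52.6% of genes at or above 5.09. IFIT1, an inhibitor of translation of foreign RNA, read 5.55, 5.66, 5.26 and 5.49 in siTAZ and 7.79, 7.93, 7.84 and 7.92 in sibcat, 5.20-fold apart (-2.38, adjusted p = 2.48e-13). The siTAZ arrays lay close to the IFIT1 control mean of 5.86. TRIM22 was lower by 1.72 with a dim siTAZ level, and IFI35 by 1.18. ISG20, an exonuclease, went the other way by 1.43 (9.13 against 7.70, adjusted p = 1.08e-11), as did IFI27 by 1.06.

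Of 21 antigen presentation genes 10 were lower, 1 higher and 10 not called (6 lower in replicates A and B alone, and 4 of the 15 left without _s_at and _x_at probe sets). The share called, 52.4%, was near the 52.6% of genes at or above 5.09 in at least 1 group. The peptide transporter subunit TAP2 was lower by 1.19, and the immunoproteasome subunits PSMB10 and PSMB9 by 1.10 and 0.82. The class II gene HLA-DRB1 was lower by 0.40 with overlapping arrays (adjusted p = 0.00884), and it was not called in replicates A and B alone (-0.37, adjusted p = 0.151). B2M, the common light chain of class I, differed by -0.10 and was not called.

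Inflammatory genes went both ways. Of 28 NF-kappaB and inflammatory genes 11 were higher, 9 lower and 8 not called (7 higher and 5 lower of the 20 left without _s_at and _x_at probe sets), and IL24 had the largest increase. The share called was 71.4%, against 52.6% of genes at or above 5.09. LCN2, a siderophore-binding protein, read 9.41, 9.23, 8.97 and 9.10 in siTAZ and 11.37, 11.37, 11.05 and 11.15 in sibcat, 4.16-fold apart (-2.06, adjusted p = 3.63e-11). The monocyte chemokine CCL2 read 10.07, 9.88, 9.49 and 9.45 against 11.23, 11.33, 10.98 and 11.07 (-1.43, adjusted p = 7.58e-08), and CCL7 was lower by 2.00. Control means of CCL2 (8.41) and CCL7 (5.17) were below both groups. The neutrophil chemokines CXCL8, CXCL2, CXCL1 and CXCL3 were higher by 1.35, 0.89, 0.66 and 0.64, and CXCL11 and CXCL10 were lower by 1.30 and 0.50 from dim levels. SOD2, the mitochondrial superoxide dismutase, was higher by 0.90, and IL6 and IL1B were dim and not called.

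Immediate early and MAPK feedback genes gave 11 higher, 8 lower and 11 not called of 30 (median 0.10, with 5 lower in replicates A and B alone). In all 63.3% were called, against 52.6% of genes at or above 5.09. EGR1, a zinc finger factor induced within minutes of growth signals, read 10.45, 10.47, 10.63 and 10.58 in siTAZ and 8.20, 8.06, 8.29 and 8.33 in sibcat, 4.97-fold apart (2.31, adjusted p = 4.26e-14). Its relative EGR3 was higher by 1.92 and the ETS factors ETV1 and ETV5 by 1.47 and 1.28. The growth factor ligands EREG and HBEGF were lower by 1.16 and 0.97, EREG with a dim siTAZ level, and the ERK phosphatase DUSP6 (0.07) was not called.

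Of 37 mesenchymal and matrix genes 20 were lower, 3 higher and 14 not called, with a median of -0.26 (5 were higher with the replicate letter as a block). The share called was 62.2%, against 36.7% of all genes and 52.6% of genes at or above 5.09. Of the 37, 13 were under 5.09 in both groups. SPARC, a collagen-binding matrix protein, read 7.33, 7.44, 7.14 and 7.43 in siTAZ and 8.99, 9.28, 9.52 and 9.57 in sibcat (-2.00, adjusted p = 1.1e-09). PLAU, the urokinase protease, read 8.36, 8.37, 8.51 and 8.49 against 10.44, 10.39, 10.46 and 10.47 (-2.01, adjusted p = 6.85e-14). Their control means of 6.07 and 7.80 were below both groups. TIMP3, a protease inhibitor, and COL6A1, a collagen chain, each differed by -1.81. NTN4, a netrin of basement membranes, was lower by 2.39 with a dim siTAZ level, the repressor SNAI2 by 1.63 and VIM, vimentin, by 0.62.

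Epithelial genes were also more often lower than higher in siTAZ. Of 31 epithelial junction and keratin genes 16 were lower in siTAZ, 5 higher and 10 not called (median -0.22). The share called was 67.7%, against 52.6% of genes at or above 5.09. Without _s_at and _x_at probe sets 9 of the 22 left were lower. CDH1, E-cadherin, read 8.61, 8.75, 8.82 and 8.81 in siTAZ and 10.22, 10.20, 10.36 and 10.36 in sibcat, 2.90-fold apart (-1.54, adjusted p = 5.72e-11). The epithelial factor ELF3 was lower by 1.56 and PPL, periplakin, by 1.29. KRT23, a keratin known from colorectal cancer cells, was higher by 1.79 (12.37 against 10.57, adjusted p = 2.45e-13). EPCAM, KRT18 and KRT19 differed by 0.06, -0.06 and -0.09 and were not called.

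Focal adhesion and actin genes had 13 lower, 6 higher and 12 not called of 31 (8 lower of the 25 left without _s_at and _x_at probe sets). Of this list 61.3% were called, against 52.6% of genes at or above 5.09. After ITGB8 and ITGAV, the actin binder TAGLN2 was lower by 1.26 and tropomyosin TPM1 by 1.14. ITGA1, a collagen-binding integrin subunit, was higher by 1.5 (adjusted p = 1.31e-07). ITGB1, the common beta subunit, differed by -0.07 and was not called.

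Energy metabolism lists had more members lower than higher in siTAZ, most by small amounts. Of 31 glycolysis and hypoxia response genes 18 were lower, 5 higher and 8 not called (median -0.16, 74.2% called). P4HA2, a collagen prolyl hydroxylase, read 9.68, 9.58, 9.57 and 9.67 in siTAZ and 12.14, 12.04, 12.04 and 12 in sibcat, 5.39-fold apart (-2.43, adjusted p = 8.71e-16). HK2, hexokinase 2, was lower by 0.93, VEGFA by 0.66 and PKM, pyruvate kinase, by 0.59; LDHA was lower by 0.20. Of 26 respiratory chain genes 17 were lower, 1 higher and 8 not called (median -0.17, 69.2% called). Of genes at or above 5.09, 52.6% were called. NDUFB5, of complex I, was 2.03-fold lower (10.46 against 11.48, adjusted p = 1.58e-11), SDHC, of complex II, was lower by 0.54 and UQCRC1, of complex III, by 0.37. ATP5F1A, of ATP synthase, was lower by 0.34 on an _s_at probe set and not called without such sets (0.04) or over the mean of its sets (-0.15, adjusted p = 0.054).

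These 2 lists lost calls when the data were cut down. With replicates A and B alone, 9 of 31 glycolysis genes and 8 of 26 respiratory chain genes were called lower. Without probe sets ending in _s_at or _x_at, 8 of the 20 glycolysis genes left and 9 of the 24 respiratory chain genes left were lower.

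Lipid genes were compared as a synthesis list and an LXR list, and the LXR list holds regulators as well as exporters. Of 24 cholesterol and fatty acid synthesis genes 8 were lower in siTAZ, none was higher by limma (1 at an unadjusted p under 0.05) and 16 were not called (33.3% called, below the 52.6% of genes at or above 5.09); 1 was higher with the replicate letter as a block or without sibcat replicate C. INSIG1, which retains the SREBP escort in the endoplasmic reticulum, was lower by 1.14, the fatty acid elongase ELOVL6 by 0.81, the squalene epoxidase SQLE by 0.71 and the desaturase SCD by 0.66. HMGCS1, LSS and FDPS, of the sterol pathway, were not called at 0.27, 0.01 and 0.02. Of 12 lipid efflux genes under LXR 5 were lower, 2 higher and 5 not called (58.3% called, near the same 52.6%). The cholesterol exporter ABCA1 read 5.35, 4.97, 5.03 and 5.25 in siTAZ and 7.12, 7.12, 7.48 and 7.26 in sibcat (-2.10, 4.27-fold, adjusted p = 4.35e-09), near the dim mark in siTAZ. Of 3 other ABCA1 probe sets 1 was also called lower and 2 dim ones were not called. NR1H3, the receptor LXR-alpha, was lower by 1.43, ABCG1 by 1.00 and SREBF1 by 0.92, while MYLIP, which degrades the LDL receptor, was higher by 0.61. The other SREBF1 probe set was not called (0.01). Control means of ABCA1 (4.30) and ABCG1 (5.3) were below both groups. The 2 higher became 1 without any one of 7 arrays, all but sibcat replicate D.

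Stress genes of amino acid shortage and unfolded proteins had 13 higher, 9 lower and 10 not called of 32. Their share called was 68.8%, against 52.6% of genes at or above 5.09. Without _s_at and _x_at probe sets 8 of the 24 left were higher and 4 lower. SLC7A11, the cystine importer, read 8.87, 8.80, 8.91 and 8.93 in siTAZ and 6.86, 7.03, 7.02 and 6.92 in sibcat (1.92, adjusted p = 3.45e-13). SLC7A5, a transporter of large neutral amino acids, went the opposite way at 8.41, 8.38, 8.46 and 8.39 against 10.19, 10.23, 10.12 and 10.06 (-1.74, adjusted p = 5.6e-14). DDIT4, an inhibitor of mTORC1, was lower by 1.04 and the chaperone HSPA5 by 0.51. ASNS, asparagine synthetase, was higher by 0.81 on an _s_at probe set; its other probe set was near the bottom of the scale and gave -0.04.

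Intestinal stem cell and lineage genes were mostly dim: 22 of 34 were under 5.09 in both groups, and 24 were not called, with 5 higher and 5 lower (3 lower in replicates A and B alone, and 1 of the 28 left without _s_at and _x_at probe sets). Their share called, 29.4%, was below the 36.7% over all genes. DCLK1, a kinase that marks tuft cells, read 10.47, 10.51, 10.51 and 10.52 in siTAZ and 6.98, 7.10, 7.24 and 7.05 in sibcat, 10.6-fold apart (3.41, adjusted p = 3.41e-16). The factors CDX2 and KLF5 were higher by 1.45 and 1.36. VIL1, the brush border protein villin, was lower by 1.14 and the Notch target HES1 by 0.94, and MUC2 (0.07), CHGA (-0.06) and KRT20 (0.08), markers of differentiated lineages, were not called.

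Oncofetal genes linked to HMGA proteins and the let-7 microRNA had 8 lower, 2 higher and 6 not called of 16. In all 62.5% were called, against 52.6% of genes at or above 5.09. After HMGA2 came E2F8 (-1.39), which is also counted among the replication genes above. IGF2BP3 and IGF2BP2, RNA-binding proteins, were lower by 1.12 and 0.65, IGF1R by 0.94 and HMGA1 by 0.50. IGF2BP3 was not called without _s_at and _x_at probe sets (-0.20, adjusted p = 0.0963). TRIM71, itself a let-7 target, was higher by 1.12 from a dim sibcat level, and LIN28B, which blocks let-7 processing, was not called (0.10).

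Genes of the RNA interference machinery were compared because both groups received an siRNA. Of 12, 5 were higher in siTAZ, 4 lower and 3 not called (75% called, against 52.6% of genes at or above 5.09). TNRC6A, a scaffold of Argonaute proteins, read 8.60, 8.49, 8.54 and 8.63 in siTAZ and 9.45, 9.50, 9.70 and 9.64 in sibcat (-1.01, adjusted p = 2.1e-07), and TNRC6B was lower by 1.11. AGO2, the Argonaute that cuts target RNA, was higher by 0.72, and DICER1 was not called (-0.19). TNRC6C was higher by 1.01 on its brightest probe set and not called over the mean of its 7 (0.06, adjusted p = 0.479).

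**Figure D5:**
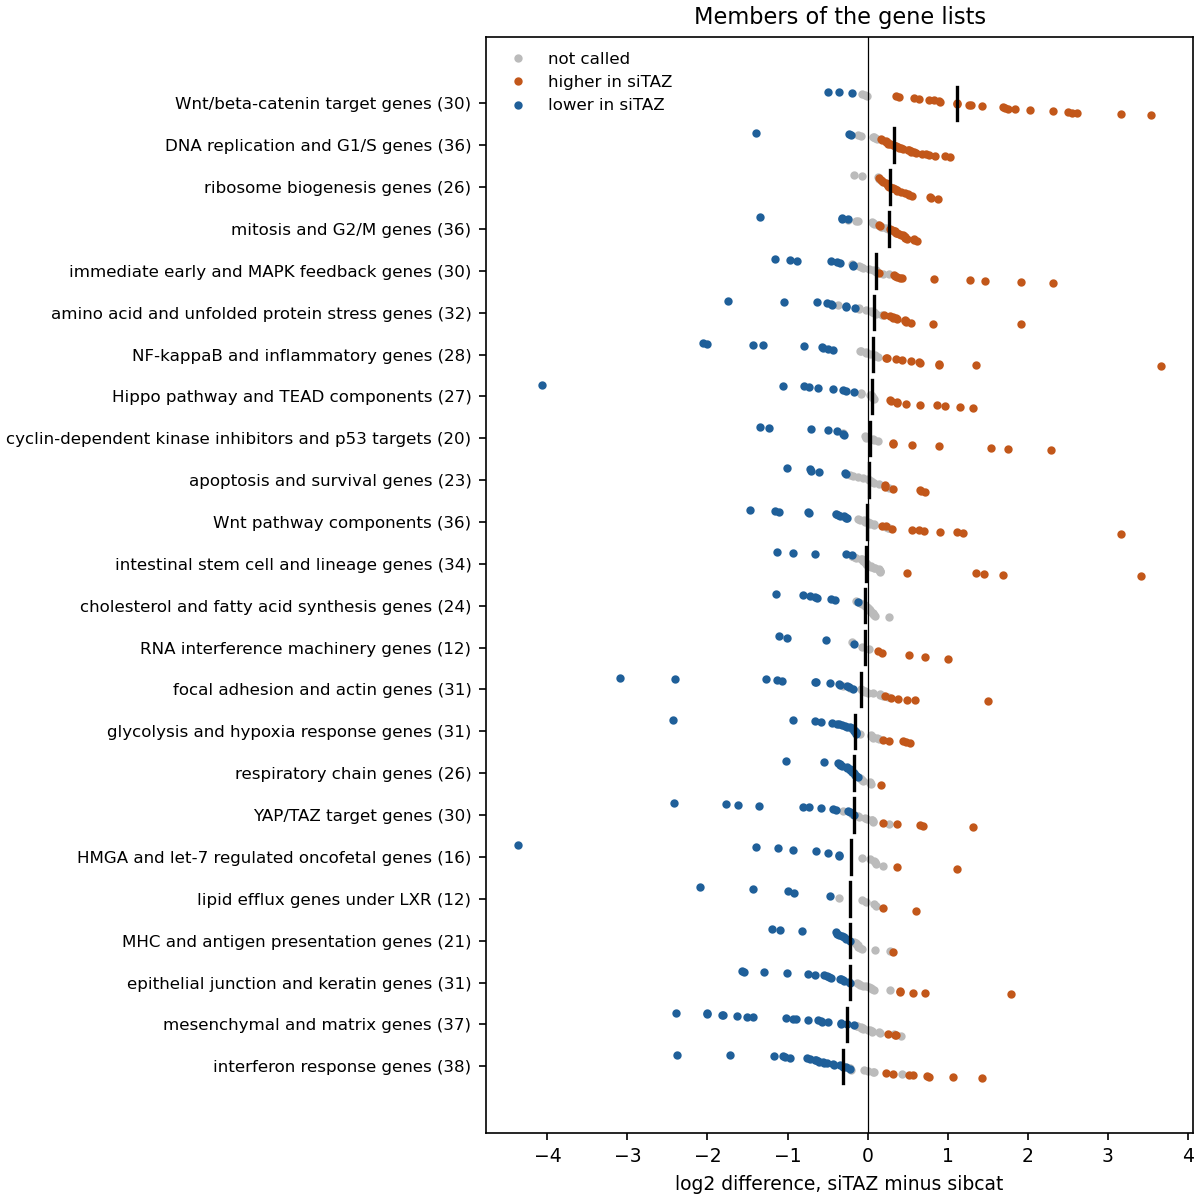
Log2 difference, siTAZ minus sibcat (horizontal axis), of each analysed member of 24 gene lists (rows, with the number analysed); each point is 1 gene over 4 against 4 arrays, colours give the call, and black bars are list medians. The Wnt target list has the highest median, 1.12, and the interferon list the lowest, -0.31.

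Array quality and markers of other cells were compared last. Correlations between arrays were 0.9974 to 0.9982 within siTAZ, 0.9968 to 0.9985 within sibcat and 0.9829 to 0.9848 between them. The 3′ minus 5′ difference of ACTB, which grows as RNA degrades, was 2.56 ± 0.387 in siTAZ and 2.30 ± 0.242 in sibcat (SD, n = 4, exact permutation p = 0.314). That of GAPDH was 0.50 ± 0.105 and 0.34 ± 0.0645 (exact permutation p = 0.0571). With ACTB as a covariate 3976 genes were higher and 3660 lower. GAPDH, which had the smaller p, was not used as a covariate. The list of 13 markers of a colorectal line had 4 called: CDX2 was higher, and CDH1, VIL1 and KRT8 (-0.34) were lower, with a mean level of 7.74 to 7.81 on siTAZ arrays and 7.84 to 7.89 on sibcat arrays. Of 15 fibroblast and endothelial markers none was called by limma (1 higher and 1 lower at an unadjusted p under 0.05, which 8423 of all genes reached), and 10 were under 5.09 in both groups; 1 was lower with the replicate letter as a block or without sibcat replicate C. Leukocyte markers had 1 of 12 called, CD14, lower in siTAZ by 1.04, and their mean level was 4.5 to 4.70 in siTAZ and 4.57 to 4.68 in sibcat. Nervous system and liver markers had 3 of 14 called, SYT1 (3.05) and SNAP25 (1.54), both proteins of synaptic vesicle release, higher in siTAZ and SERPINA1 lower by 0.80, with a mean level of 5.44 to 5.52 in siTAZ and 5.20 to 5.27 in sibcat. The part of these markers in the results above was not tested.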

How the data were processed

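Each of 16 SW480 samples, in 4 groups of 4, was hybridised to an Affymetrix U133 Plus 2.0 array. The authors deposited 1 table of log2 values per probe set and array, made with RMA per the submitters' processing notes (no version is given); base 2 was inferred here because values lie between 1.8 and 14.56, given to 2 decimals. RMA quantile-normalises the arrays, so shifts in the total RNA of a cell are invisible. Precision is limited by the number of arrays, since there are no counts.

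Of 54675 probe sets, 41097 were paired with 1 gene, 1801 with several and 11777 with none; symbols came through the gene ID for 41043 of the single-gene sets and were kept as annotated for 54. Each of 19775 genes was represented by its single-gene probe set with the highest mean over the 16 arrays; 10523 genes had several. All 16 arrays entered 1 fit of 4 group means in limma 3.58.1 (R 4.3.3), with the contrast siTAZ minus sibcat and Benjamini-Hochberg adjustment over all genes. Exact two-sided permutation tests of 4 against 4 arrays cannot go below p = 0.0286. The code of the fit was run on simulated arrays with few changed genes and no grouping of replicates. That run was a check of the code and not of the calls made here. Figures were drawn with matplotlib 3.10.9.

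The members, the 28 gene lists (751 genes, 693 analysed) and the rule for named genes were chosen with earlier results of these data known; the lists come from general knowledge. The rule named WWTR1, CTNNB1, HMGA2, MUCL1 and YAP1, the 12 highest and 12 lowest called genes without overlap and with a brighter group mean of at least 5.09, up to 4 called members of each list with the largest difference, and CCN1, CCN2, ANKRD1, AXIN2, NKD1 and LGR5, 126 genes in all. Other genes named as list members, and the motif examples, were chosen after their values were seen.

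The letters A to D come from the labels. Deviations from the group means of the same letter correlated at 0.105 to 0.197 in all 4 pairs. A with B and C with D correlated as well, at 0.136 to 0.165, against -0.179 to -0.116 across. The arrays thus grouped as A and B against C and D, and a pairing by single letter was not shown. The main fit used no pairing or block. Alternatives were the replicate letter as a block, a block that sets A and B apart from C and D, either pair alone, the 8 arrays alone, each array left out, other probe set rules, a filter on dim genes, other scalings, ACTB degradation as a covariate, another variance prior and stricter thresholds.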

Additional observations from a re-analysis of the deposited data

Results flagged for a closer look

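Among the named genes, 252 groups of 4 arrays were examined for 1 array far from the other 3, and 11 were found; chance gives about 1 in 20. YAP1 read 11.35 on siTAZ replicate A against 11.12 to 11.15 on the others, and 9.84 on sibcat replicate A against 10.07 to 10.11. PLPPR4 read 7.38 on siTAZ replicate C against 7.19 to 7.20, CDT1 9.18 on the same array against 9.04 to 9.06, and SDHC 9.74 there against 9.66 to 9.67. ABCG1 read 6.75 on siTAZ replicate B against 6.90 to 6.92. On sibcat replicate B, IL24 read 4.70 against 4.18 to 4.25 and PSMB9 10.03 against 10.09. On sibcat replicate D, STMN1 read 5.95 against 6.59 to 6.67 and IGFBP3 13.28 against 13.24. COXFA4L3 read 8.42 on sibcat replicate C against 8.08 to 8.12. None of these genes' siTAZ and sibcat arrays overlapped, but PLPPR4, IL24, STMN1 and COXFA4L3 were among the extremes taken without overlap.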

How the results depend on the processing

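The counts of 3737 higher and 3522 lower genes stayed within 1.5 times under the alternatives other than a fold limit; at least 2-fold left 449 and 430. Leaving out each array in turn gave 3469 to 3576 higher and 3275 to 3385 lower. The replicate block gave 4135 and 3860 and changed no named gene's call, replicates A and B alone 2677 and 2465, C and D alone 3309 and 3219, and leaving out _s_at and _x_at probe sets 2794 and 2683 of 17100 genes. WWTR1, CTNNB1, HMGA2 and MUCL1 stayed called the same way under all 21 alternatives run on them, at -4.12 to -3.58, 2.42 to 3.30, -4.42 to -0.79 and 5.10 to 5.36. Of the other 122 named genes, 3 changed sign without _s_at and _x_at probe sets: ATP5F1A (0.0425), ASNS (-0.04) and GDF15 (-0.15), none then called. STMN1 (0.26), CEMIP (0.12) and IGF2BP3 (-0.20) lost their call there. Only 99 of the 122 had a probe set without these endings, so the rest could not be checked this way. Counts of list members moved by over 1.5 times most often there and in A and B alone. In the latter, antigen presentation genes lower went from 10 to 6. In the former, epithelial genes lower went to 9 of 22 left, antigen presentation to 4 of 15, intestinal to 1 of 28, focal adhesion to 8 of 25, cholesterol and fatty acid synthesis to 4 of 15, oncofetal to 5 of 12, RNA interference to 2 of 11 and mitosis to 2 of 28; the 2 lipid efflux genes higher in siTAZ went to 0 of 9. Signals near background limit what can be said of genes under 5.09, and the causes of these shifts were not tested.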

Other observations

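Histone genes, taken by symbol, lie outside the lists and were looked at after their values were seen. Of 22 H2A and H2B genes 15 were lower, none was higher and 7 were not called, with a median of -0.53. Of 24 H1, H3 and H4 genes 3 were lower, 1, the linker histone gene H1-10, was higher and 20 were not called. Over all genes 36.7% were called. Of the first group 8 and of the second 13 were under the median probe set level in both siTAZ and sibcat, and whether the groups of histone genes differ was not tested. H2BC12 read 10.83, 10.69, 10.88 and 10.83 in siTAZ and 12.5, 12.53, 12.62 and 12.63 in sibcat, and H2AC6 read 8.42, 8.40, 8.54 and 8.48 against 10.18, 10.26, 10.15 and 10.21. Their control means were 12.42 and 9.56. Genes of this family are near-identical copies, so single members are uncertain, and no test of the family was made. The variant histone gene H2AZ1, which is not counted there, went the other way: it read 13.18, 13.18, 13.19 and 13.26 in siTAZ and 9.83, 10.10, 10.24 and 10.04 in sibcat, with a control mean of 13.29. Both of its probe sets gave differences above 3, at 3.15 and 3.27.

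Some single genes outside the lists were picked because they differed, so they stand for no cell type; of the 12 leukocyte markers above 1 was called. SYK, an immune receptor kinase, was higher in siTAZ by 2.43 (11.12 against 8.69, control 10.75), CXCR4, a chemokine receptor, by 2.27 (12.28 against 10.01, control 11.45), CCR7 by 2.20 (8.32 against 6.12, control 6.29) and ZAP70, a T cell kinase, by 2.66 (8.20 against 5.54, control 6.96). LAPTM5, a lysosomal protein of blood cells, was lower by 2.35 (7.34 against 9.70, control 6.94). The morphogen SHH was higher by 2.64 (9.24 against 6.60, control 8.36).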
